A study of Mus musculus with 18 samples.

Results

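Cultured H3.3K36M cells and the tumors grown from them were compared for 104 of the 20325 genes in the deposited tables, genes well expressed in those cells and at most 1/16 as abundant in the tumors. The genes were chosen by their values: a mean of at least 500 in the 2 cultured H3.3K36M libraries, more than 10 in both cultured wild-type libraries, and a mean over 6 tumors of at most 1/16 of the cultured H3.3K36M mean. Symbols beginning with Hox, Col, Lox, Rspo, Sfrp, Wnt, Hist, Fox, Zfp, Rpl or Rps, and Tnmd, Efemp1 and Eln, were left out by name. The contrasts of tumors with cultured cells, and of the cultured H3.3K36M, H3.1K36M and wild-type lines with each other, are therefore given as descriptions, with no test.

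RNA came from C3H10T1/2 cells, multipotent mesenchymal cells first taken from embryos of C3H mice, and from tumors of one derivative. Lines carried a stable FLAG-HA-tagged histone at passage 10 to 15: wild-type H3.3 (n = 2), H3.3 with lysine 36 changed to methionine (H3.3K36M, n = 2), or H3.1 with that change (H3.1K36M, n = 2). Parental cells without a tagged histone, at the same passages, received scramble siRNA (control siRNA, n = 3) or siRNAs that target Setd2, Nsd1 and Nsd2, whose symbol in the tables is Whsc1 (HMT siRNA, n = 3). For the 6 tumors, 2000000 H3.3K36M cells in Matrigel were placed under the skin on both flanks of athymic female SCID mice, 6 to 8 weeks of age, and tumors were taken 5 to 6 weeks later. The labels tie no tumor to a mouse, so tumors may share an animal. Each genotype was one line, and the labels do not say that replicate libraries were separate cultures, so p-values reflect only how these libraries vary, which may be technical variation.

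Lysine 36 of histone H3 is methylated by the Nsd enzymes and Setd2, and a K36M histone inhibits them. Mesenchymal cells on plastic with serum make matrix, contractile fibres and secreted growth factors. SCID mice lack functional T and B cells but keep macrophages, vessels and skin, which a tumor sample can contain.

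Levels are normalised estimated counts, and depth was 13993307 to 56041798 estimated reads per library. Among genes with 1 to 20 estimated reads, 77.1 to 79.6% of values were whole (tolerance 0.02) in the cultured H3.3 libraries and 84.8 to 87.4% in all others, so tumors and H3.1K36M cells differ from the H3.3 libraries in this property. The summed level of macrophage markers (11 of 12 measured) was 502 to 511 in cultured H3.3K36M cells and 245200 to 380300 in tumors. That of endothelial markers (10 of 10) was 1699 to 1819 and 18350 to 38580, with Cldn5 at 0 in all cultured cells. The sum of 12 mesenchymal markers was 997900 to 1060000 in cultured H3.3K36M cells and 425900 to 492100 in tumors, tumor 6 being lowest. Of these (Vim, Prrx1, Twist1, Twist2, Pdgfra, Pdgfrb, Thy1, Fn1, Sparc, Col1a1, Col1a2 and Fbn1), 5 were at least 2-fold lower and 1 at least 2-fold higher in tumors. Lower were Prrx1 by 4.91-fold, Col1a1 by 4.62-fold, Col1a2 by 4.09-fold, Fbn1 by 2.80-fold and Fn1 by 2.28-fold. Thy1 was higher, at 1173 and 1163 in culture and 2344 to 3629 in tumors. Twist1 and Twist2 were higher by less than 2-fold, and Sparc, Pdgfra, Vim and Pdgfrb were lower by 1.03 to 1.31-fold. The fall of the sum was thus not shared by all 12. In bulk samples fewer cells of a type and less RNA per cell cannot be told apart, and the part of host cells in the levels below was not tested.

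Of 8207 genes that met both floors on cultured cells, 113 (1.38%) had a tumor mean at or below 1/16, and the 9 left out by name were Col2a1, Col8a2, Col11a1, Col12a1, Hist1h3b, Lox, Rspo2, Tnmd and Zfp521. The median level of the 104 was 1859 in cultured H3.3K36M cells and 67.3 in tumors. At the median their tumor mean was 3.24% of the cultured mean, against 88.8% over the 8207 genes. It was below 2% for 30 genes and below 1% for 11. Just inside the threshold of 6.25% stood Zbed6 (5.90%), Pdk4 (5.90%), Capn6 (5.95%), Lgr4 (6.04%) and Tnks (6.1%), and just outside stood Mn1 (6.32%), Atp1b1 (6.39%), Ebf1 (6.78%), Mtap2 (6.81%) and Stard4 (6.85%). Low describes the genes better than lost: 1 gene, Tgoln2, was listed at 0 in all 6 tumors, Unc5c was at 0 in 1 tumor, and the other 102 were above 0 in every tumor.

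**Figure D1:**
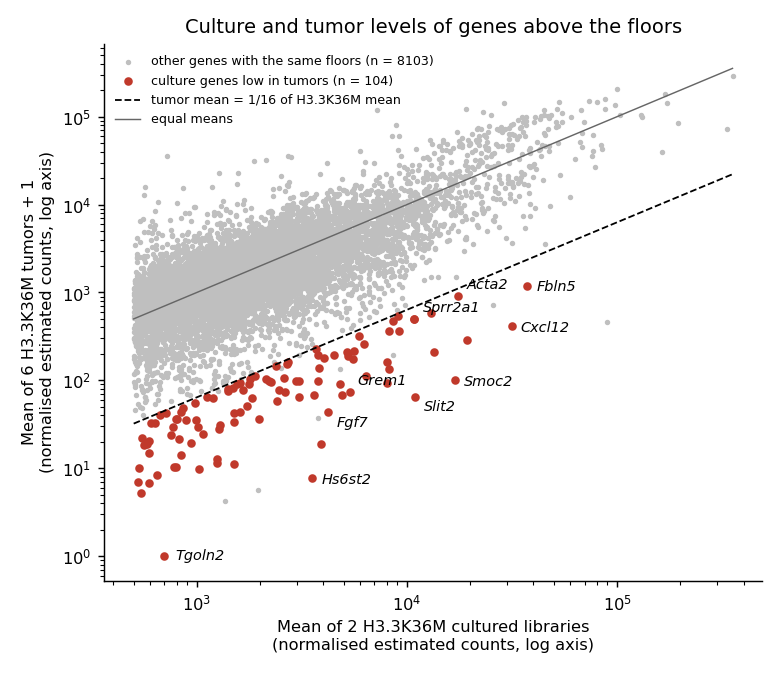
Mean of 6 H3.3K36M tumors (plus 1, log axis) against the mean of 2 cultured H3.3K36M libraries (log axis), in normalised estimated counts, for 8207 genes above the floors. The 104 genes (red) lie under the dashed line of 1/16 by construction, from Fbln5 at 37421 in culture to Pcdh9 at 523, and Tgoln2 lies at 0 in tumors.

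Promoters of 4 genes are shown: Fbln5 and Cxcl12 had the highest culture levels, Acta2 is the contractile marker of the set, and Grem1 responded most to HMT siRNA among the secreted signals. Each is the 250 bases before the RefSeq start in GRCm38.p6, 5′ to 3′ on the gene's strand: Cxcl12 at chr6:117168285-117168534 (plus), Fbln5 at chr12:101819120-101819369 (minus), Acta2 at chr19:34255374-34255623 (minus) and Grem1 at chr2:113758649-113758898 (minus). Capitals mark matches on either strand to the AP-1 motif, spelled TGANTCA, the TEAD motif, spelled GGAATG, the TATA box, spelled TATAAA, the CCAAT box, named by its letters, or the GC box, spelled GGGCGG.
Cxcl12: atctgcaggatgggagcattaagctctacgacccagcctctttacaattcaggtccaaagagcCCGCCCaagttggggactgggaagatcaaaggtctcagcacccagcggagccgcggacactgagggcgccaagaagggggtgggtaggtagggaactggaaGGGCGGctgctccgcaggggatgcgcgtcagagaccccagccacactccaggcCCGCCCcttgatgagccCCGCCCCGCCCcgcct
Fbln5: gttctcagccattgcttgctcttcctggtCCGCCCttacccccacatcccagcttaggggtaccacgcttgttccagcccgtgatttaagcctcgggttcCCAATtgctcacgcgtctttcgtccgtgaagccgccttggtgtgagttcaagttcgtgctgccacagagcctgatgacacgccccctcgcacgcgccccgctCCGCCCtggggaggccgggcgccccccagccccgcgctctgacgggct
Acta2: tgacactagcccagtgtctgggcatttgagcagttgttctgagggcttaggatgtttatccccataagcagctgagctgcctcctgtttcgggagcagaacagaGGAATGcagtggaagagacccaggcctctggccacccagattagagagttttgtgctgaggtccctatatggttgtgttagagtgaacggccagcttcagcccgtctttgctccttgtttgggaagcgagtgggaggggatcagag
Grem1: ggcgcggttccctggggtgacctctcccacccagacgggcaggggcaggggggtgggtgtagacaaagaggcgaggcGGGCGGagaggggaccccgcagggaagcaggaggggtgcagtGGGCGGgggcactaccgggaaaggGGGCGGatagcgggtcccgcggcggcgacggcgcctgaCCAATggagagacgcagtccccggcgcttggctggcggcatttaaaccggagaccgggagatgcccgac
Cxcl12 held 5 GC boxes, the last pair overlapping at 16 and 11 bases before the start. Fbln5 held 2 GC boxes and a CCAAT box, Grem1 held 3 GC boxes and a CCAAT box, and Acta2 held a TEAD match at 146 bases before the start. Of 27025 RefSeq promoters, 6.87% held the AP-1 motif, 12.6% TEAD, 13% TATA, 34.5% CCAAT and 32.9% the GC box. Of the 6562 that belong to genes with the same floors, the shares were 3.69, 9.8, 5.65, 37.3 and 65.1% in that order. The GC box was thus usual among genes expressed in these cells. A promoter was matched for 69 of the 104 genes (66.3%), under the 80% needed, so a comparison of motif shares over the set is void. A match describes letters and is not a site.

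Secreted signals and their antagonists had the lowest median tumor share of all roles, 1.56% of culture over 10 genes (range 0.586 to 3.1%). Cxcl12, the chemokine that holds blood stem cells in their niche, measured 31237 and 31748 in cultured H3.3K36M libraries and 185 to 701 in tumors (median 390.2). Every tumor was below the lowest cultured library of any genotype, 7315 in H3.1K36M cells. Slit2, a ligand of Robo receptors, measured 10984 and 10737 in culture and 34.4 to 105 in tumors (median 57.9), a 171-fold difference of means. Fgf7, a mesenchymal growth factor for epithelia, measured 4078 and 4317 and, in tumors, 20.1 to 73.4 (median 41.9). Grem1, an antagonist of bone morphogenetic proteins, measured 5317 and 5419 and, in tumors, 28.9 to 97.1 (median 77). Tumors and cultured libraries did not overlap for any of these 3. The others were Hgf, the ligand of Met (3.1% of cultured H3.3K36M cells), Nrg1, a ligand of ErbB receptors (2.35%), Angpt1, a ligand of Tek (2.18%), the matricellular protein Nov (1.87%), the BMP regulator Bmper (1.78%) and the chemokine Cxcl5 (1.2%). As shares of wild-type cells, tumor means were higher for Hgf (55.5%), Bmper (14.5%), Nrg1 (9.99%) and Cxcl5 (3.73%), and lower for Angpt1 (1.56%) and Nov (1.25%).

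Receptors of Cxcl12 and Hgf are not among the 104. Cxcr4, a Cxcl12 receptor that blood cells also carry, was 19.6 and 18 in cultured H3.3K36M cells and 563 to 784 in tumors. Cxcr7, the other Cxcl12 receptor, was 1479 and 1423 in culture and 166 to 267 in tumors, so the pair differed in direction. Met was 4325 and 4377 in culture and 1683 to 2549.8 in tumors.

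**Figure D2:**
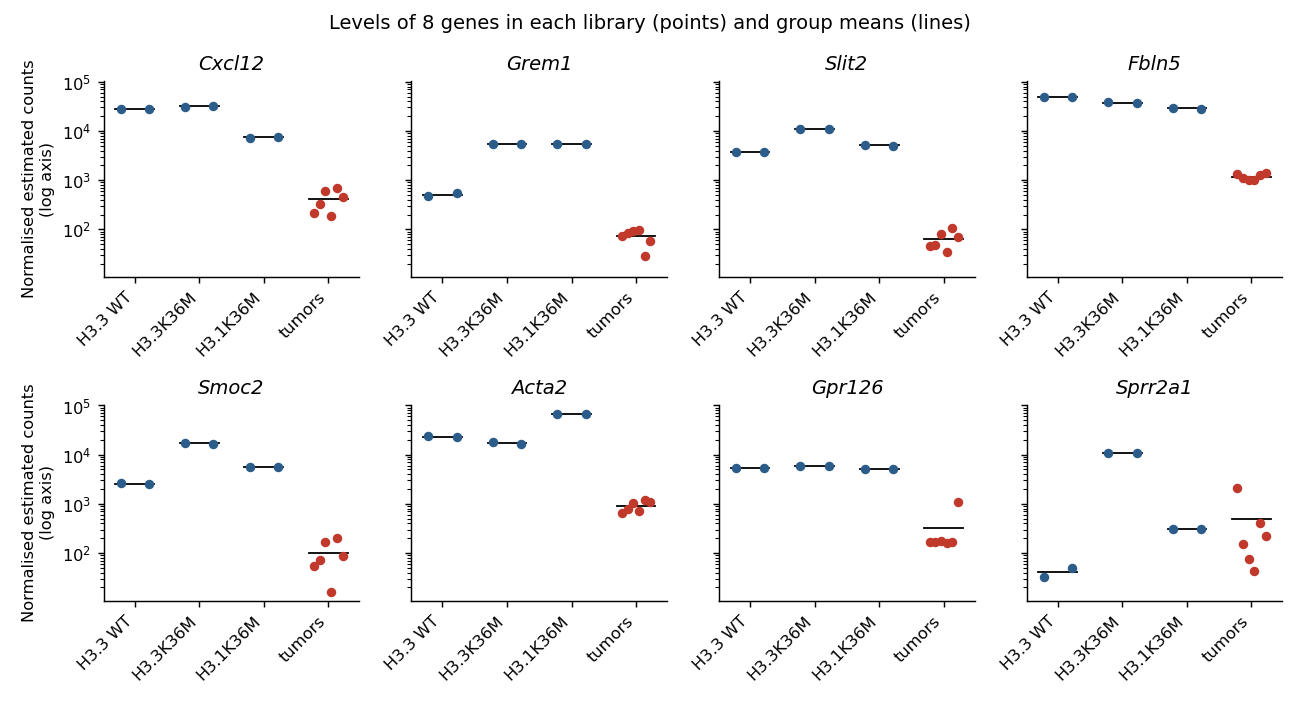
Normalised estimated counts (log axis) of 8 genes in every library of the tumor table, with a point per library and a line at each group mean. Tumors (red) lie below all cultured libraries (blue) for 7 genes, with Gpr126 at 1084 in tumor 6, and for Sprr2a1 they overlap H3.1K36M and wild-type cells.

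The 20 receptors and adhesion molecules had a median tumor share of 3.17% (range 0.990 to 6.04%). Unc5c, a netrin receptor, measured 570.4 and 613 in cultured H3.3K36M cells, 0 to 4.33 in tumors 1 to 5 and 21.8 in tumor 6. Wild-type cells had 6261 and 6664, so it was low in cultured H3.3K36M cells and lower in tumors. Cdh2, N-cadherin, measured 8157 and 7986 in culture and 115 to 229 in tumors (median 148). Gpr126, an adhesion receptor needed for myelination by Schwann cells, measured 5881 and 5993 in culture, 159 to 173 in tumors 1 to 5 and 1084 in tumor 6. All tumors were below culture for both, and tumor 6 stood apart for Gpr126. Lgr4, a receptor of R-spondins, measured 2318 and 2450.0 in culture and 86.8 to 314 in tumors (median 115), tumor 6 being highest. Shares of cultured H3.3K36M cells for other receptors were 4.5% for the Wnt receptor Fzd4, 5.56% for the Hedgehog receptor Ptch1, 3.05% for the ephrin receptor Epha7, 2.91% for the receptor kinase Ret, 2.35% for the natriuretic peptide clearance receptor Npr3, 5.27% for the collagen-binding integrin subunit Itga11 and 5.16% for F3, tissue factor. The tumor mean of Ret was 48.4% of its wild-type mean.

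The 12 matrix proteins and matrix enzymes had a median share of 2.88% (range 0.190 to 5.52%). Fbln5, a fibulin of elastic fibres, had the highest culture level of the 104, 38267 and 36575, and was 1012 to 1377 in tumors (median 1172). Hs6st2, a heparan sulfate sulfotransferase, had the lowest share above 0, with 3506 and 3589.9 in culture and 1.34 to 14.9 in tumors (median 6.32). Neither overlapped culture. Smoc2, a matricellular protein, measured 17261 and 16692 in culture and 16.2 to 198 in tumors (median 78.3), highest in tumor 5 and lowest in tumor 4. Ogn, osteoglycin, measured 12828 and 14035 in culture and 56.7 to 529.9 in tumors (median 191). Again no tumor reached a cultured library. Npnt, nephronectin, measured 2599 and 2585 in cultured H3.3K36M cells but 40.1 and 40.4 in wild-type cells, and 10.1 to 423 in tumors (median 48.9). Tumor values lay on both sides of wild-type cells, with tumor 6 highest. Ptx3, a soluble pattern recognition protein, measured 963 and 994 in cultured H3.3K36M cells, 33523 and 32487 in wild-type cells and 4.02 to 218 in tumors (median 18.4), tumor 3 being highest.

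The 21 cytoskeletal, scaffold and signalling proteins had a median share of 4.08%, and tumor 6 was highest for 18 of them. Acta2, smooth muscle actin, measured 17983 and 16842 in cultured H3.3K36M cells and 665 to 1181 in tumors (median 916). In wild-type cells it was 23632 and 22379.8, and in H3.1K36M cells 68224 and 66604. Every tumor was below every cultured library. Pericytes carry Acta2, and the sum of 6 pericyte markers was 21090 to 22910 in cultured H3.3K36M cells and 9552 to 14260 in tumors. Akap12, a kinase scaffold, measured 19263 and 19213 in culture and 209 to 381 in tumors (median 268). Dclk1, a microtubule-associated kinase, stood at 5.43% of culture.

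Metabolic enzymes (10), transcription and chromatin factors (8), transporters and channels (6) and traffic proteins (3) followed. Cyp1b1, a cytochrome P450, measured 8016 and 8071 in culture and 42.9 to 133 in tumors (median 92). Maoa, monoamine oxidase A, measured 12850.5 and 13122 and, in tumors, 476 to 673 (median 588). Eya4, a phosphatase and transcriptional coactivator, measured 4748 and 5070.1 and, in tumors, 57.7 to 74.8 (median 69.6). None of the 3 overlapped culture, and the tumors were close together for Eya4. Slc1a3, a glutamate transporter, measured 3810.5 and 3974 in culture and 3.04 to 37.5 in tumors (median 15.3). Vnn1, a pantetheinase, measured 1218 and 1261 and, in tumors, 7.08 to 14.4 (median 12.3). Both were below every cultured library in all tumors. Tgoln2, a trans-Golgi protein, measured 706 and 695 in culture and 0 in tumors, while the closely related Tgoln1 measured 2851 and 2981 in culture and 2361 to 3474 in tumors. Reads may be shared between this pair, so the value of Tgoln2 is uncertain.

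The remaining 14 are other genes, uncharacterised loci and multi-copy families, and copies that share reads are uncertain. Sprr2a1 and Sprr2a2, small proline-rich proteins of the skin, had equal values in every library, so they are 1 measurement that enters every count here as 2 genes. They were 10762 and 10765 in cultured H3.3K36M cells, 32 and 50.5 in wild-type cells and 303 and 307 in H3.1K36M cells. In tumors 1 to 6 they were 2077, 151, 74.8, 42.7, 403 and 224, so the tumors overlapped H3.1K36M cells. The sum of 6 keratinocyte markers in the same tumors was 29540, 7340, 11630, 335, 26490 and 166, with Krt1 at 0 in all cultured cells. Tumor 1 was highest in both, and the part of skin cells in the Sprr2a level was not tested. Cdsn, corneodesmosin, grouped here with matrix and also a skin protein, was 6519 and 5916 in culture and 148 to 384 in tumors, with tumor 1 highest.

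In 95 of the 104 genes (91.3%) all tumors lay below every cultured library, against 37.5% of the 8207 genes, a count that the choice of genes largely fixes. The other 9 were Sprr2a1, Sprr2a2, Npnt, Pdk4, Gria3, Syt13, Gm5662, Gm2022 and Ppef1, each at least 16-fold higher in H3.3K36M than in wild-type cells. The tumor mean was below the wild-type mean for 99 of the 104 genes (against 55.2% of the 8207) and at most 1/16 of it for 70 (67.3%, against 1.58%). It was below the H3.1K36M mean for 102 of the 104 (against 57.5% of the 8207) and at most 1/16 of it for 73 (70.2%, against 1.16%). The 5 genes above wild-type cells were Sprr2a1, Sprr2a2, Npnt, the synaptotagmin Syt13 and the glutamate receptor subunit Gria3.

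Tumor 6 stood apart from the others. The median share of the cultured level over the 104 genes was 2.80, 2.29, 2.68, 2.02, 2.96 and 4.70% in tumors 1 to 6. Tumor 6 was the highest for 63 genes (60.6%), against 43.7% of the 8207, and tumor 4 was the lowest for 51 (49%), against 16.9%. Tumor 4 was the highest for 4.81% of the 104 and 27.7% of the 8207. In 56 genes every tumor was at or below 1/16 of culture, and 39 exceeded 1/16 in tumor 6. The median SD between tumors was 50.9% of the mean, against 2.65% between the cultured H3.3K36M libraries. These spreads are not a like comparison. The choice of genes made tumor levels low (median 67.3, against 1859 in culture), and each culture SD rests on 2 libraries. Among marker sums, tumor 6 also had the highest endothelial (38580), skeletal muscle (21550) and NK cell and lymphocyte sums (9779) and the lowest macrophage (245200), pericyte (9552), keratinocyte (166) and mesenchymal sums (425900). Their part in these values was not tested.

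**Figure D3:**
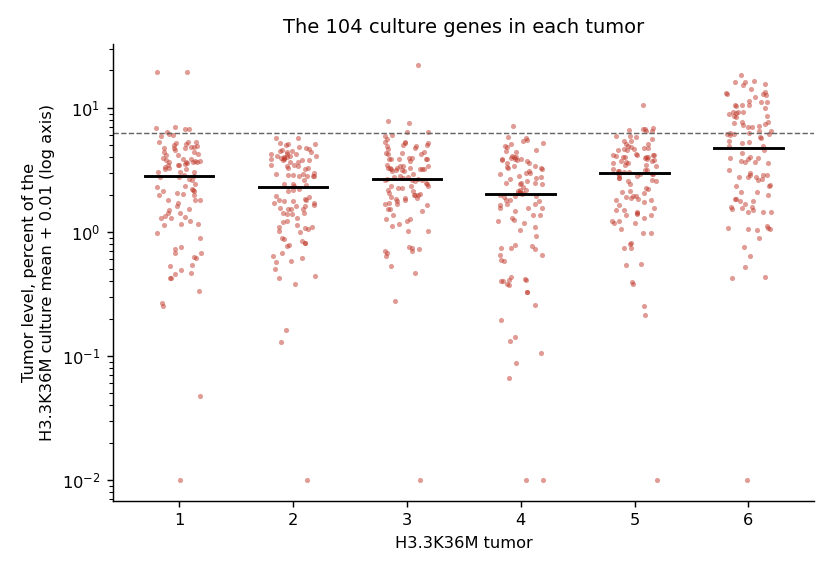
Level of each of the 104 genes in each tumor as a percentage of the cultured H3.3K36M mean (plus 0.01, log axis), with black lines at the medians and a dashed line at 6.25%. The medians run from 2.02% in tumor 4 to 4.70% in tumor 6, which has 39 genes over the dashed line.

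The genes had long transcripts. A length was found for 102 of them, with a median of 5094 bases against 3376 over the genes with the same floors, and 56 were over the upper quartile of 4938 bases. Their median GC content was 45.5%, against 49.9%. Over those genes, ordered by length and cut into 4 classes of like size, the median log2 difference of tumors from cultured H3.3K36M cells was 0.58, -0.00, -0.43 and -1.01 from the shortest class to the longest. The Spearman correlation of length with this difference was -0.53 across 8150 genes, which share libraries and are not independent replicates. In tumors 1 to 5 it was -0.52 to -0.54 and in tumor 6 -0.44, while for H3.1K36M against H3.3K36M cells it was -0.05. The median of the longest class was -0.71 in tumor 6 and -1.04 to -1.12 in the other 5. The median tumor share was 3.25% in the 56 longer genes of the set and 3.23% in the 46 shorter ones. Both groups were chosen at 1/16 on this same share, so the likeness of these medians cannot show whether length matters for the set. Of the genes with the same floors, 0.589% of the shortest class and 2.94% of the longest were at or under 1/16. Tumor 6 was highest for 42 of the 56 (75%) and for 20 of the 46 (43.5%). With the median of each of 20 length classes removed, 75 genes reached 1/16, 70 of them among the 104. Of the 102 with a length, 99 were at least 8-fold lower in tumors (exceptions Mib1, Strn and Tnks). The choice of genes at 1/16 largely fixes this last count. The part of RNA quality in this trend was not tested.

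**Figure D4:**
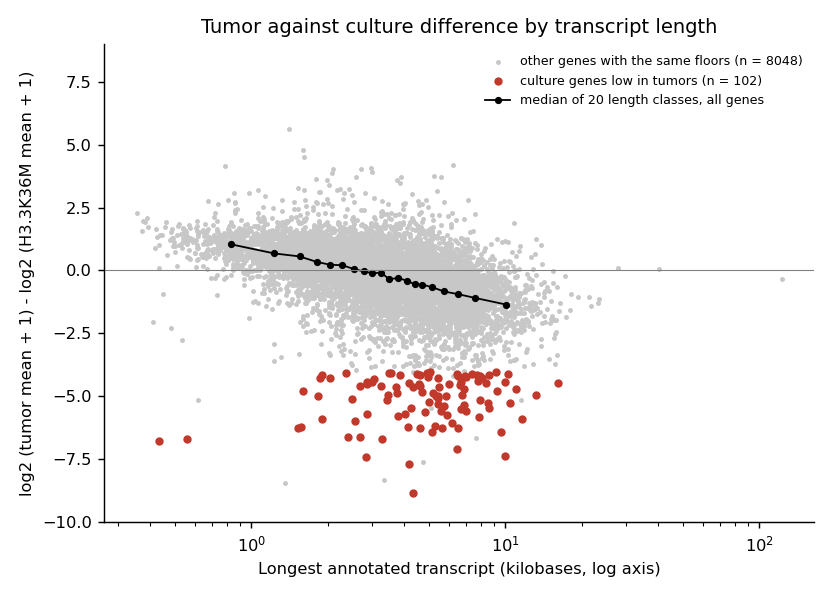
Log2 difference of the tumor mean from the cultured H3.3K36M mean (each plus 1) against the longest annotated transcript (kilobases, log axis), with a black line through medians of 20 length classes. The line falls with length, and 56 of the 102 genes with a length (red) are over the upper quartile against 10 under the lower one.

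The siRNA libraries played no part in choosing the genes, while the fit that tested them also used the H3.3 libraries of its table for the spread and the filter. The comparison asks how the genes respond when these enzymes are depleted in culture. The targets fell by limma: Setd2 had a log2 fold change of -1.52 ± 0.05 (SE), Whsc1 -0.59 ± 0.04 and Nsd1 -0.52 ± 0.04. All 104 genes passed the filter on low values, although Ppef1 was under 10 in all 6 siRNA libraries and passed through other libraries of the fit. With limma and Benjamini-Hochberg adjustment over 12634 genes (threshold 0.05), 40 of the 104 rose (38.5%), against 32.6% of all genes and 40.0% of the 8207. Another 46 fell (44.2%), against 32.8% and 31.1%, and 18 did not pass. At 2-fold or more, 12 rose (11.5%) against 4.81% and 3.96%, and 11 fell (10.6%) against 4.81% and 1.21%. The median log2 fold change of the 104 was -0.02, with members moving in both directions.

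The counts by role that follow stand beside 32.6% of all genes rising and 32.8% falling, or 40.0% and 31.1% of the 8207. Differences of a role from these shares were not tested, and several counts lie near them. Among 10 secreted signals, 8 rose, Nov fell and Nrg1 did not pass. Grem1 measured 2518, 2403 and 2467 in HMT siRNA libraries and 590.3, 513 and 519.8 in control libraries, a log2 fold change of 2.19 ± 0.06 (SE; limma adjusted p = 3.35e-17). Bmper measured 647, 646 and 651 against 226, 201 and 256, a log2 fold change of 1.51 ± 0.08 (limma adjusted p = 5.89e-13). Every HMT library was above every control library for both. Such a lack of overlap was common among the 104 genes, in one direction or the other. Its share over all genes was not counted, so here and below it is a description that sets no gene apart. Cxcl12 measured 27892, 27752 and 27210.5 against 16922, 16928 and 16695, a log2 fold change of 0.71 ± 0.03 (limma adjusted p = 1.92e-14), again without overlap. Cxcl5 (1.37 ± 0.10), Angpt1 (1.35 ± 0.05), Fgf7 (0.69 ± 0.04), Hgf (0.53 ± 0.06) and Slit2 (0.49 ± 0.04) also rose, with limma adjusted p of at most 2.77e-07. Nov measured 6315, 6484 and 6364 against 27621, 28402 and 28619, the largest fall of the 104 (-2.14 ± 0.03, limma adjusted p = 4.35e-21). Nrg1 had 0.16 ± 0.11 (limma adjusted p = 0.224).

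Of 20 receptors and adhesion molecules, 7 rose and 11 fell. Npr3 measured 3019.5, 2752 and 2977 in HMT libraries and 753, 656 and 687 in control libraries (log2 fold change 2.06 ± 0.06), and Gpr126 rose by 0.81. Fat4, an atypical cadherin, measured 2356, 2262 and 2400.0 against 7371, 6254 and 7337 (-1.57 ± 0.05). The adhesion receptor Gpr64 (-1.47 ± 0.04), Lgr4 (-1.11 ± 0.03), Fzd4 (-1.05 ± 0.06) and Epha7 (-1.02 ± 0.06) fell as well. Libraries of the groups did not overlap for any of these 7.

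Of 12 matrix genes, 8 fell and 2 rose. Fbln5 measured 20836, 21508 and 20219.5 in HMT libraries and 39219.6, 40358 and 37631 in control libraries (-0.91 ± 0.03, limma adjusted p = 6.81e-15), without overlap. Fbn2, a fibrillin of microfibrils, had -1.24 ± 0.04, Ogn -0.80 ± 0.04, Hs6st2 -0.35 ± 0.04 and Smoc2 -0.33 ± 0.05, all past the threshold. The risers were the adhesion protein Svep1 (0.57 ± 0.04) and Cdsn (0.18 ± 0.04), while Adamts6, a metalloprotease, had -0.11 ± 0.09 and the complement-related protease Masp1 had -0.05 ± 0.04, both short of the threshold.

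Of 21 cytoskeletal and signalling genes, 10 fell and 6 rose. Acta2 measured 24096, 24391 and 23045 in HMT libraries and 33523, 35216 and 33892 in control libraries (-0.52 ± 0.04, limma adjusted p = 9.44e-11), without overlap. Pak3, a p21-activated kinase, had -1.09 ± 0.07 and Dclk1 -0.78 ± 0.04, while Diap3, a formin that nucleates actin, rose by 1.22. Akap12 had 0.01 ± 0.03 and did not pass.

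Of 10 metabolic enzymes, 6 rose and 3 fell. Pdk4, the kinase that shuts off pyruvate dehydrogenase, measured 2925, 2906 and 2964 in HMT libraries and 899.9, 817 and 913 in control libraries (1.74 ± 0.05, limma adjusted p = 3.84e-16). The phospholipase Pla2g4a rose by 1.16 and Ogdhl, a relative of oxoglutarate dehydrogenase, had -1.80 ± 0.10. Of 6 transporters 1 rose and 4 fell, led by the sulfate transporter Slc26a2 (-1.10 ± 0.06) and Slc7a2, a cationic amino acid transporter (-0.99 ± 0.03). Of 8 transcription and chromatin factors 2 rose and 4 fell, Vgll3, a TEAD cofactor, having 0.46 ± 0.05. The Sprr2a pair measured 15, 12.9 and 10.3 against 3.04, 1.25 and 1.05 (2.36 ± 0.25), levels of a few reads.

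**Figure D5:**
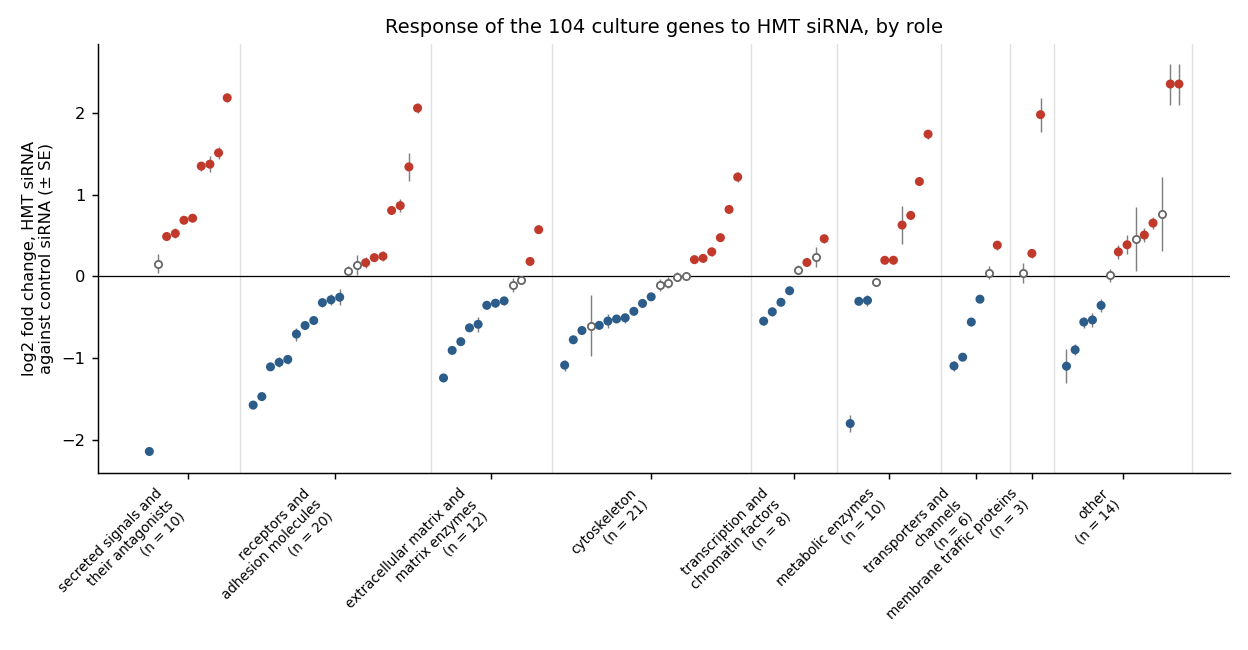
Log2 fold change (± SE, limma) of HMT siRNA against control siRNA cells (3 libraries each) for the 104 genes by role, with filled points past the threshold and open points short of it. Filled points above 0 number 8 of 10 secreted signals, and filled points below 0 number 8 of 12 matrix genes. Over all genes tested, 32.6% rose and 32.8% fell past the threshold.

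The other contrasts use the libraries that chose the genes, and nothing is read from their counts. Folds counted here are on the scale of log2(value + 1). In H3.3K36M against wild-type cells, 33 of the 104 were at least 2-fold higher, against 4.86% of the 8207, and 18 at least 2-fold lower, against 3.73%. By ratio of means, Sprr2a1 was 261-fold higher, Npnt 64.4-fold, Hgf 17.9-fold and Grem1 10.6-fold, while Ptx3 was 33.7-fold lower, Gpr64 13.4-fold and Fbn2 9.63-fold. Of the secreted signals, 6 of 10 were at least 2-fold higher and 0 lower.

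HMT siRNA and H3.3K36M contrasts compare different libraries, although the HMT fit also drew its spread from the H3.3 libraries. Of 33 genes raised 2-fold or more in H3.3K36M cells, 18 rose with HMT siRNA (54.5%) and 7 fell (21.2%). Of 399 genes with the same floors and such a fold 70.9% rose and 12.8% fell. Of 18 at least 2-fold lower, 16 fell (88.9%) and 2 rose (11.1%), and of 306 such genes 84.6% fell and 6.86% rose. Of the 53 within 2-fold, 20 rose (37.7%) and 23 fell (43.4%), and of 7502 such genes 39.7% rose and 29.9% fell. The differences between these shares were not tested.

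In H3.1K36M against H3.3K36M cells, 3 of the 104 were at least 2-fold higher (2.88%, against 0.865% of the 8207). Another 29 were at least 2-fold lower (27.9%, against 2.94%), 5 of them secreted signals. Sprr2a1 was 35.3-fold lower, Vnn1 14.5-fold, the latrophilin receptor Lphn3 12.3-fold and Cxcl12 4.28-fold, at 7315 and 7406. The 3 higher genes were Acta2 at 3.87 times the H3.3K36M mean, Gpr64 at 2.47 and Ret at 2.28. Grem1, at 5451 and 5393, was close to its H3.3K36M level.

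In H3.1K36M against wild-type cells, 31 of the 104 were at least 2-fold higher (29.8%, against 6.59% of the 8207) and 33 lower (31.7%, against 5.56%).

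Wider gene lists give the neighbourhood of the set. Of the 8207 genes 23.9% were at least 2-fold lower and 12.6% at least 2-fold higher in tumors than in cultured H3.3K36M cells, with a median log2 difference of -0.17. Of 17 cytokines, chemokines and growth factors above the floors, 10 were at least 2-fold lower and 3 higher (median -1.73), and 5 are among the 104. Of 22 targets of YAP, TEAD and SRF, 12 were lower and 0 higher (median -1.19), including Acta2 and F3. Of 19 ion channels and transporters 10 were lower and 4 higher (median -1.22), of 24 xenobiotic and antioxidant genes 11 and 5 (median -0.76), and of 22 extracellular proteases and inhibitors 8 and 6 (median -0.23). Of 23 adhesion and junction genes 14 were lower and 3 higher (median -1.26), including Cdh2, Itga11 and the protocadherin Pcdh9. Of 19 general fibroblast genes, none among the 104, 3 were lower and 7 higher (median 0.70). Of 22 axon guidance genes 8 were lower and 5 higher (median -0.25), and of 27 mesenchymal transcription factors 9 were lower and 2 higher (median -0.74). With HMT siRNA, limma's test (32.6% of all genes higher, 32.8% lower) gave these counts for the same lists. Of 33 cytokines, chemokines and growth factors tested, 21 rose and 5 fell (median log2 0.65). Of 30 xenobiotic and antioxidant genes tested, 18 rose and 6 fell (median log2 0.32), and of 39 adhesion and junction genes tested, 16 rose and 14 fell (median log2 0.03). Of 28 targets of YAP, TEAD and SRF tested, 8 rose and 15 fell (median log2 -0.19), of 37 axon guidance genes tested, 11 rose and 20 fell (median log2 -0.23), and of 36 channels and transporters tested, 12 rose and 15 fell (median log2 -0.12). Of 34 extracellular proteases and inhibitors tested, 13 rose and 14 fell (median log2 -0.00), of 46 mesenchymal transcription factors tested, 15 rose and 16 fell (median log2 -0.01), and of 22 general fibroblast genes tested, 8 rose and 9 fell (median log2 0.02).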

How the data were processed

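Per the labels' protocols, RNA was isolated with Trizol and libraries followed Illumina's TruSeq protocol. The submitters' processing notes name Bowtie 1.0.0, RSEM 1.2.12 and build mm9; counting settings are not given in the sources used here. The authors deposited 3 tables of 20325 genes that hold a signal: estimated counts, median-normalised per library. The tables were scaled separately, so comparisons stay within a table. Values are not whole reads, so no count test was run. Depth was computed from the smallest step between a library's values.

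The 104 genes, their roles and the gene lists were chosen with earlier results of these data known. Named genes are those ranking highest or lowest in culture level, tumor share, tumor spread, HMT siRNA response or H3.1K36M ratio, those nearest the threshold, and list members; further names were chosen after their values were seen. The limma test (version 3.58.1, R 4.3.3), used for HMT siRNA alone, ran on log2(value + 1), which understates changes of low genes. It used eBayes with trend and robust settings and two-sided p-values under Benjamini-Hochberg adjustment over all genes tested. A gene entered with 10 or more in as many libraries as the smaller group. For HMT siRNA, 1 fit held the 10 cultured libraries of its table. The procedure was tested on simulated data. Lengths and GC content came from the longest GENCODE transcript matched by symbol, and promoters from RefSeq (GRCm38.p6); no coordinates were converted. Alternatives covered pseudocount, filter, scaling, a replicate block, left-out libraries, the ratio and transcript length. Tables and figures were made in Python 3.11.15 (pandas 2.3.3, matplotlib 3.10.9).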

Additional observations from a re-analysis of the deposited data

Results flagged for a closer look

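A tumor lay far from the other 5, with a gap to its neighbour over 0.625 of the whole range, for 37 of the 104 (35.6%), against 22.2% of the 8207 genes with the same floors. For normally distributed values chance marks about 1 in 20 groups. That shape was not checked for these counts, so the share of the 8207 genes is the comparison to use. Tumor 6 was the distant one for 33 of the 37, and for 93.5% of those among the 8207. For the genes named here its normalised estimated counts, each the highest of the 6 tumors, were as follows: Ogn (530), Phldb2 (913), Capn6 (1470), Dclk1 (766), Pla2g4a (761), Gpr126 (1080), Unc5c (21.8), Npnt (423), Bicc1 (587), Fat4 (336), Pdk4 (296), Slc26a2 (180), Lgr4 (314), 9930111J21Rik1 (360), Lphn3 (78.0) and Serpinb9b (571). Sprr2a1 and Sprr2a2, which had equal values, reached 2080 in tumor 1, the tumor with the highest keratinocyte marker sum (29540). Ptx3 (218) and Cxcl5 (29.9) were highest in tumor 3. Ptx3, the Sprr2a pair, Npnt, Unc5c, Gpr126, Bicc1 and Fat4 are named for their spread between tumors, so their presence here is no separate evidence.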

How the results depend on the processing

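The number of genes at or below the ratio was 104 at 1/16, 215 at 1/8 and 49 at 1/32. It was 119 with quantile normalisation, 103 with equal upper quartiles and 124 with the median of the tumors, with 104, 103 and 104 of the reported genes shared. Leaving out 1 library gave 97 to 129, the highest without tumor 6. Alternatives chosen after seeing the data gave 75 after a length correction (70 shared), 67 after length and GC correction (61 shared) and 70 from tumor 6 alone (65 shared).

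With HMT siRNA, leaving out 1 library gave 38 to 41 genes higher and 45 to 49 lower. Counts at 2-fold or more were 33 to 34 higher and 18 lower for H3.3K36M against wild-type cells, 30 to 31 and 31 to 33 for H3.1K36M against wild-type cells, and 3 to 4 and 28 to 30 for H3.1K36M against H3.3K36M cells. The other alternatives run for these 4 comparisons kept the counts within 1.5 times. Deviations of same-numbered HMT and control libraries correlated at 0.185, 0.0574 and 0.158, and those of differently numbered ones at -0.28 to 0.173. These values do not settle whether the numbers mark pairs. The main fit did not take them as pairs, and the replicate block gave 41 higher and 46 lower. Depth limits the precision of genes with few estimated reads, such as Ppef1 and the Sprr2a pair in siRNA libraries.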
